A study of Mus musculus with 6 samples.

Results

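Liver-enriched transcription factors of the FOXA, C/EBP, ONECUT and PROX families were examined in mouse primary hepatocytes given LRG1. The 9 genes were taken by name from 22609 gene rows, with the nuclear receptors left out. They were Foxa1, Foxa2, Foxa3, Cebpa, Cebpb, Cebpd, Onecut1, Onecut2 and Prox1. All 9 passed the filter on low counts. Donor mice were wild-type C57BL/6 males, 4 months old, so that both groups share this background and no transgene or deletion is mentioned. The hepatocytes received PBS, the vehicle, or LRG1 protein at 20 µg/mL, in each case for 16 h, with 3 RNA-seq libraries per group. LRG1 is a secreted leucine-rich glycoprotein, and the study's title names it an adipokine of fatty liver and insulin resistance. Whether samples of 1 group derive from different animals or culture dishes is not stated, and the p-values therefore reflect only the spread among these samples, which may be technical.

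These factors bind the promoters and enhancers of liver genes together and in part regulate each other. FOXA proteins, once called HNF3, are forkhead factors that can bind closed chromatin and open it to other factors. C/EBP proteins are leucine zipper factors, of which C/EBP alpha drives metabolic genes of the resting hepatocyte and C/EBP beta and delta respond to cytokines, hormones and injury. ONECUT1, also called HNF6, and ONECUT2 are cut-homeodomain factors of liver and bile duct development, and PROX1 is a homeodomain factor of hepatocytes and lymphatic endothelium. ONECUT1 is known as an activator of the Foxa2 gene.

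Promoter sequences are shown for 4 genes with lower mRNA. Foxa2, Foxa1 and Cebpa were taken because their windows hold letters that factors of these families bind, and Onecut1 because it differed the most. RefSeq promoters (build GRCm38.p6) were matched for 7 of the 9 genes, all but Cebpd and Onecut2. Of each window the 250 bases before the start of transcription are given, 5′ to 3′ on the strand of the gene. Capitals mark matches, on either strand, to the forkhead motifs TGTTTAC and TGTTTGT and the ONECUT motif ATTGAT in the Foxa genes, to the C/EBP half-site TTGCG and the TATA box TATAAA in Cebpa, and to the E-box CACGTG in Onecut1.
Foxa2, chr2:148046970-148047219, minus strand: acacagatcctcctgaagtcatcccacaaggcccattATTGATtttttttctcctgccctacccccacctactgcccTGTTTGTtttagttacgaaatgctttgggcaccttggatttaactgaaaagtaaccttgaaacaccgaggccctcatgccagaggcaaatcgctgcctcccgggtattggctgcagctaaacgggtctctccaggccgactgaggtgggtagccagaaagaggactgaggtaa
Foxa1, chr12:57546112-57546361, minus strand: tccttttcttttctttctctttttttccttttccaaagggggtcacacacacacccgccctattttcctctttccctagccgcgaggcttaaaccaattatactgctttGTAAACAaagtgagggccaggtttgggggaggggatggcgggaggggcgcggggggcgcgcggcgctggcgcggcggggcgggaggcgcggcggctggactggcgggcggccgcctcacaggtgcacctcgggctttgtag
Cebpa, chr7:35119043-35119292, plus strand: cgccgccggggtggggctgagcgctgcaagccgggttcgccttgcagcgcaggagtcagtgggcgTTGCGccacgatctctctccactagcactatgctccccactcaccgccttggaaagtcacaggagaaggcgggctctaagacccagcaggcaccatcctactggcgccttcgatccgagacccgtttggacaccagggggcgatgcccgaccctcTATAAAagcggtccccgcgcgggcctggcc
Onecut1, chr9:74861671-74861920, plus strand: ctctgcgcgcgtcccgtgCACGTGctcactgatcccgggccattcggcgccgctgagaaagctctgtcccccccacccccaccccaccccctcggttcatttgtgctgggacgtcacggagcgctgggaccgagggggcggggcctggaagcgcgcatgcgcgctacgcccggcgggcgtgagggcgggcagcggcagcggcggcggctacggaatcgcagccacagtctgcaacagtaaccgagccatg

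The Foxa2 window held the ONECUT letters from position -213 to -208 and a forkhead match from -173 to -167, counted from the start. The Foxa1 window held GTAAACA, the reverse complement of TGTTTAC, from -141 to -135. In Cebpa the half-site lay from -185 to -181. Of 27025 RefSeq promoter windows of this length, 6.97% held ATTGAT, 3.09% TGTTTAC, 5.85% TGTTTGT, 14.6% TTGCG, 6.05% CACGTG and 13.0% TATAAA. The full palindrome TTGCGCAA, which contains TTGCG, and the SMAD palindrome GTCTAGAC were also searched and matched none of the 7 windows. They were found in 0.170% and 0.174% of all windows. Of the other members, Foxa3 held TTGCG and TATAAA, Prox1 held TATAAA, and Cebpb held none of the 8 motifs. Such matches describe letters only.

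Each library held from 18625748 to 23036332 counts in genes. Levels are given in CPM, the counts of a gene scaled to a common library total with TMM factors. A gene was called when its adjusted p in edgeR's quasi-likelihood test was under 0.05. Of 12301 tested genes, 51.4% were called, 25.8% lower and 25.5% higher with LRG1, so a call alone was common in this comparison. Of 9 hepatocyte markers, 4 fell (Apoa1, Cps1, Ass1 and Fgb, with Cps1 4.32-fold and Fgb 1.72-fold lower), Trf rose and 4 did not pass. Under 5 of 15 other settings the number that rose was 2. The sum of the 9 markers, mostly Alb and Trf, was 48194 to 49227 CPM in the PBS libraries and 48071 to 48859 CPM in the LRG1 libraries. Lrg1 mRNA itself fell from 270 ± 22.5 to 159 ± 25.0 CPM (SD, n = 3 per group).

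With LRG1, 7 of the 9 factor genes fell and none rose. Onecut1 fell the most, to a level 4.95-fold lower, followed by Cebpa at 1.78-fold and Foxa2 at 1.501-fold. Prox1 and Foxa1 were 1.47-fold and 1.43-fold lower, and Foxa3 and Cebpb 1.19-fold and 1.17-fold lower. Cebpd and Onecut2 did not pass the test. The median log2 fold change of the 9 genes was -0.51, against 0.0093 over all tested genes, and the share of all tested genes called lower was 25.8%. The count of 7 held under 14 of 15 other settings and was 6 once trends with GC content and length had been removed.

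**Figure D1:**
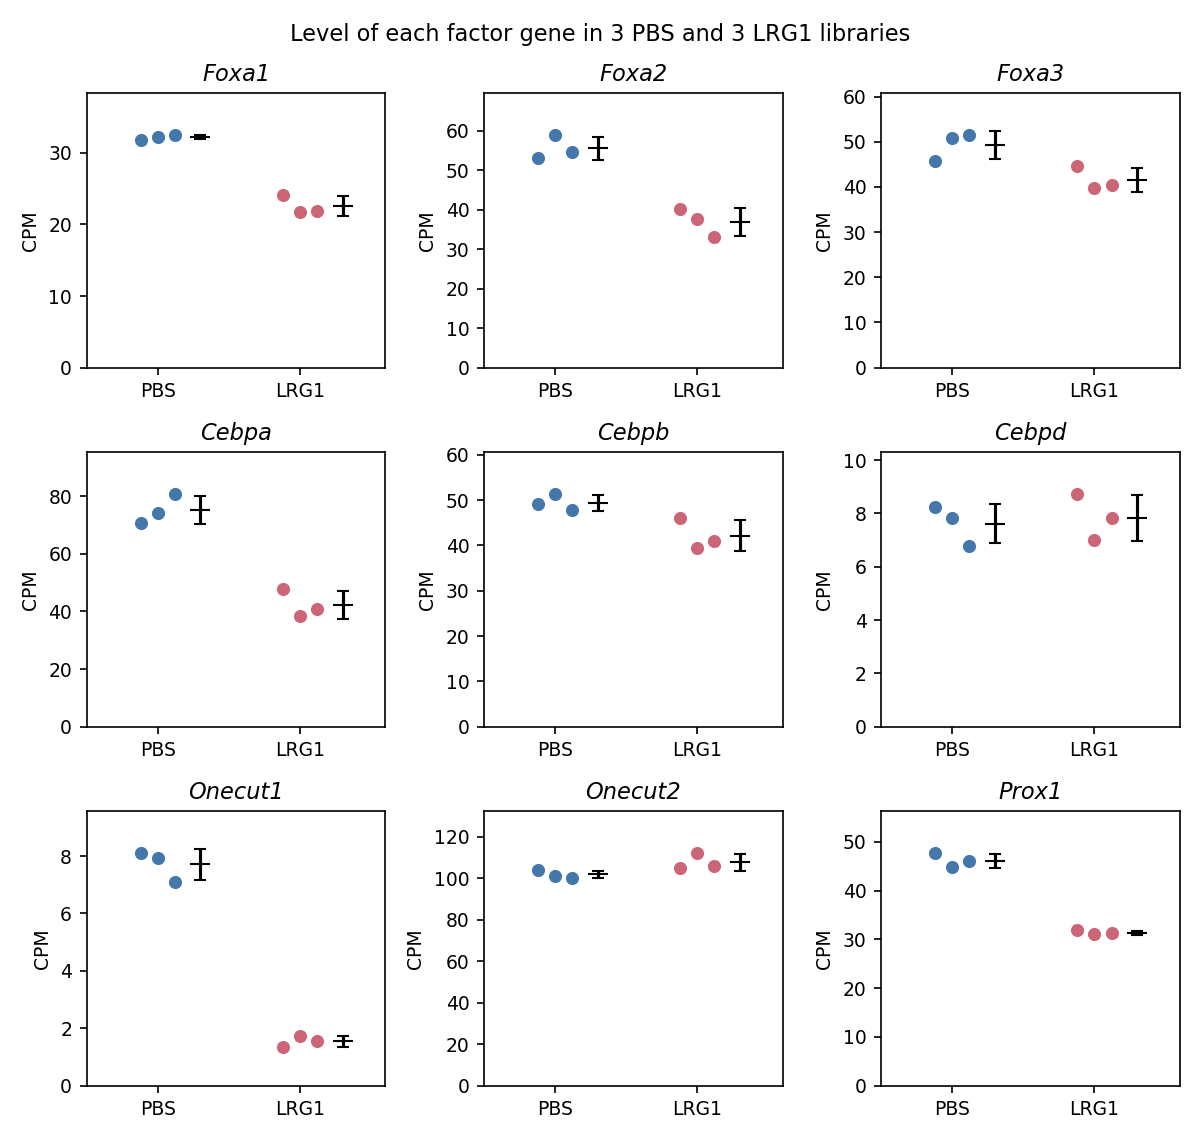
Level of each of the 9 genes in CPM (vertical axis, from 0) in the 3 PBS and 3 LRG1 libraries; each point is a library, ordered by replicate number, and the bar beside it is the mean ± SD. Onecut1 lies between 7.11 and 8.10 CPM with PBS and between 1.34 and 1.73 CPM with LRG1, while the Cebpd groups overlap.

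**Figure D2:**
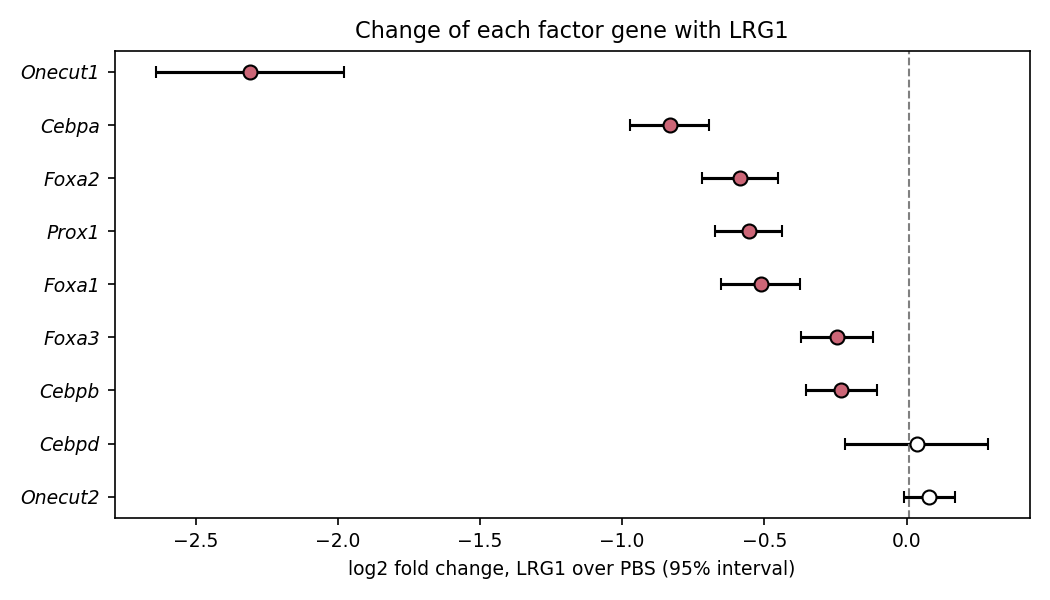
Log2 fold change of each gene, LRG1 over PBS (horizontal axis), with its 95% interval; filled points passed the test and open points did not, and the dashed line is the median of all tested genes. Onecut1 stands apart at -2.31, and 6 other genes lie between -0.83 and -0.23.

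Among the ONECUT genes, Onecut1 had 8.10, 7.92 and 7.11 CPM in PBS replicates 1 to 3 and 1.34, 1.73 and 1.56 CPM in LRG1 replicates 1 to 3. Every LRG1 library lay far below every PBS library. The log2 fold change was -2.31 (SE 0.16, adjusted p = 1.52e-11, 95% interval -2.64 to -1.98). It rested on 441 counts with PBS and 98 with LRG1. Calls of at least 4-fold in either direction made up 2.73% of tested genes. Of all tested genes, 90 (0.732%) had a log2 fold change as low or lower. Without any single library and under the other alternatives its log2 fold change ran from -2.40 to -2.23. A noncoding gene, Gm20649, overlaps Onecut1 on the same strand in GENCODE M21, so some of these reads may belong to it.

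Its relative Onecut2, which shares the cut and homeodomain parts, had 104, 101 and 100.2 CPM with PBS and 105, 112 and 106 CPM with LRG1. The LRG1 libraries all lay above the PBS libraries, by a narrow margin at LRG1 replicate 1 and PBS replicate 1. The groups also did not overlap in 57.6% of all tested genes. The log2 fold change of 0.080 did not pass (SE 0.043, adjusted p = 0.127), and its 95% interval ran from -0.0093 to 0.17. It was 0.0068 once trends with GC content and length had been removed (adjusted p = 0.897).

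The log2 ratio of Onecut2 to Onecut1 counts within a library was 3.68, 3.68 and 3.82 with PBS and 6.28, 6.02 and 6.08 with LRG1, a 5.29-fold higher ratio. The groups did not overlap. An exact two-sided permutation test gave p = 0.10, the smallest that 3 against 3 libraries allow (0.125 adjusted over the 5 pairs compared). Per kilobase of exon, Onecut1 made up 23.7 ± 0.994% of the ONECUT sum with PBS and 5.55 ± 0.491% with LRG1 (SD, n = 3 per group).

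Cebpa, the C/EBP gene of the quiescent liver, had 70.7, 74.2 and 80.6 CPM with PBS and 47.7, 38.3 and 40.8 CPM with LRG1. The groups were clearly apart, and LRG1 replicate 1 was the highest of its group. The log2 fold change was -0.83 (SE 0.067, adjusted p = 2.23e-10). In GENCODE M21 the antisense gene Gm45091 overlaps it. The library kit keeps strand, but use of strand in the counting is not stated.

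Cebpb, the C/EBP gene induced in regeneration and inflammation, had 49.2, 51.3 and 47.7 CPM with PBS and 46.0, 39.5 and 41.0 CPM with LRG1. The groups did not overlap, but LRG1 replicate 1 lay close to PBS replicate 3, the lowest of the PBS group. The log2 fold change of -0.23 passed (SE 0.060, adjusted p = 0.00277). Once trends with GC content and length had been removed it was -0.13 and did not pass (adjusted p = 0.0543, in a range of 0.000302 to 0.0543 over 15 settings). Its transcript was 67.1% G and C, the highest of the 9 genes. Tmem189, which overlaps Cebpb on the opposite strand, averaged 31.3 CPM under PBS and 33.8 CPM under LRG1 without passing (adjusted p = 0.138), though it passed as higher with the same trends removed (adjusted p = 0.0318).

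Cebpd, an early responder to interleukin-6, was scarce. Its levels were 8.25, 7.81 and 6.79 CPM with PBS and 8.71, 6.996 and 7.81 CPM with LRG1, and the groups overlapped. The log2 fold change was 0.036 (SE 0.12, adjusted p = 0.828), with a 95% interval of -0.22 to 0.29. Its sign turned without PBS replicate 3 (-0.040) and without LRG1 replicate 1 (-0.051). Spidr overlaps it on the opposite strand.

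Within the C/EBP family, the log2 ratio of Cebpb to Cebpa counts was -0.52, -0.53 and -0.76 with PBS and -0.052, 0.045 and 0.0053 with LRG1. The ratio was 1.52-fold higher and the groups did not overlap (exact permutation p = 0.10, adjusted 0.125). The log2 ratio of Cebpd to Cebpb differed by 0.27, also without overlap (exact permutation p = 0.10, adjusted 0.125). It differed by 0.15 once trends with GC content and length had been removed (exact permutation p = 0.20). Per kilobase of exon, Cebpa gave 44.97 ± 2.36% of the C/EBP sum with PBS and 34.7 ± 0.720% with LRG1, and Cebpb 51.8 ± 2.03% and 60.8 ± 0.801% (SD, n = 3 per group). The sum itself was 63.4 ± 1.44 CPM per kilobase with PBS and 46.2 ± 4.34 with LRG1.

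**Figure D3:**
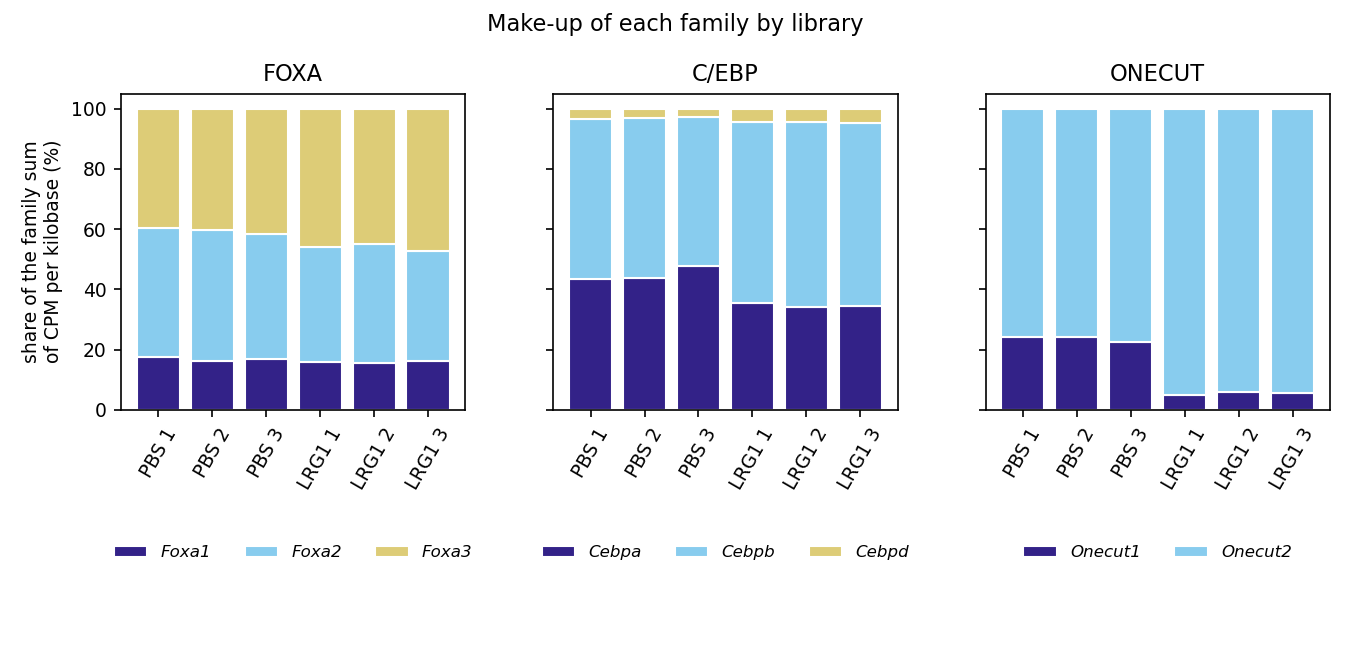
Share of each gene in its family's sum of CPM per kilobase of exon (vertical axis, percent) for each library (horizontal axis); colours are the genes. The Onecut1 share is 22.5 to 24.3% in PBS libraries and 5.003 to 5.95% in LRG1 libraries, and the Cebpa share is lower in every LRG1 library than in any PBS library.

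All 3 FOXA genes fell. Foxa1, which acts with Foxa2 at the onset of liver development, had 31.8, 32.2 and 32.4 CPM with PBS and 24.1, 21.7 and 21.9 CPM with LRG1. The PBS libraries were within 1 CPM of each other and well above the LRG1 libraries. Its log2 fold change was -0.51 (SE 0.067, adjusted p = 7.57e-07).

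Foxa2, a regulator of bile acid and glucose genes in the adult liver, had 53.1, 58.9 and 54.7 CPM with PBS and 40.1, 37.7 and 33.1 CPM with LRG1. The groups did not overlap, and LRG1 replicate 3 was the lowest. Its log2 fold change was -0.59 (SE 0.064, adjusted p = 5.04e-08).

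Foxa3, known as the FOXA gene with the highest mRNA in adult liver, had 45.8, 50.8 and 51.4 CPM with PBS and 44.7, 39.8 and 40.5 CPM with LRG1. PBS replicate 1 and LRG1 replicate 1 lay close to each other, though the groups did not overlap. Its log2 fold change was -0.25 (SE 0.061, adjusted p = 0.00167).

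The log2 ratio of Foxa3 to Foxa2 was -0.21, -0.21 and -0.088 with PBS and 0.16, 0.077 and 0.29 with LRG1, without overlap (difference 0.35, exact permutation p = 0.10, adjusted 0.125). The log2 ratio of Foxa1 to Foxa2 differed by 0.078 with overlapping groups (exact permutation p = 0.40). Per kilobase of exon, Foxa3 made up 40.5 ± 1.12% of the FOXA sum with PBS and 46.0 ± 1.33% with LRG1, and the FOXA sum went from 59.8 ± 2.67 to 44.5 ± 3.07 CPM per kilobase (SD, n = 3 per group).

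Prox1, which restrains bile acid synthesis genes in hepatocytes and specifies lymphatic endothelium, had 47.7, 44.8 and 46.0 CPM with PBS and 31.9, 31.0 and 31.3 CPM with LRG1. The LRG1 libraries were within 1 CPM of each other and far below the PBS libraries. The log2 fold change was -0.56 (SE 0.057, adjusted p = 1.54e-08). Prox1os and Gm28172, both antisense, overlap the gene. Of 9 endothelial and lymphatic markers, 8 were tested, and their summed level was 89.7 to 95.9 CPM with PBS and 107.6 to 110.3 CPM with LRG1. Flt4, the receptor of lymphatic growth factors, supplied most of it and rose (49.6 ± 2.10 to 71.0 ± 2.74 CPM). Lyve1 and Stab2 fell and 5 did not pass, with a median log2 fold change of -0.057, so the higher sum came from Flt4. Ccl21a had no count in any library. The part of endothelial and lymphatic cells in the Prox1 value was not tested.

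Levels of different genes are set in order per kilobase of exon. With PBS the order was Cebpb (32.8 ± 1.19 CPM per kilobase), Cebpa (28.5 ± 1.91), Foxa2 (25.5 ± 1.36), Foxa3 (24.2 ± 1.52), Foxa1 (10.07 ± 0.0932), Onecut2 (6.27 ± 0.116), Prox1 (5.50 ± 0.173), Cebpd (2.03 ± 0.200) and Onecut1 (1.95 ± 0.133). The neighbours Cebpa and Foxa2, Foxa2 and Foxa3, and Cebpd and Onecut1 had overlapping PBS libraries. With LRG1 Cebpb was still the highest, Foxa3 moved to rank 2 and Cebpa to rank 4, with 16.0 ± 1.85 CPM per kilobase. The neighbours Foxa2 and Cebpa, and Foxa1 and Onecut2, had overlapping LRG1 libraries. Onecut1 stayed lowest at 0.390 ± 0.0485. The lengths come from GENCODE M21 rather than from the annotation behind the counts, so the order depends on them, most of all for Onecut2 with 16.2 kb of exon.

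LRG1 replicate 1 was the highest LRG1 library for 7 of the 9 genes, all except Onecut1 and Onecut2. Its genes of at least 60% GC (464 tested genes) also stood a median of 0.045 log2 above their group mean, against -0.0033 and -0.039 in LRG1 replicates 2 and 3. Of the 7 genes, only Cebpa (62.6%) and Cebpb (67.1%) have transcripts of at least 60% GC. The others lie between 45.3% (Prox1) and 57% (Foxa2). The part of the shift of GC-rich genes in the values of the 7 genes was not tested. Without LRG1 replicate 1, 7 members were again called lower, with a median over the 9 of -0.57.

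Other members of these pathways moved in mixed directions. Counts in this and the following lists are to be read against the 25.8% of all tested genes that fell and the 25.5% that rose. Of 7 tested partners and regulators of C/EBP proteins, 4 fell and none rose, with a median log2 fold change of -0.22. Trib1, a pseudokinase that directs C/EBP alpha to degradation, fell from 85.6 ± 3.29 to 58.6 ± 1.33 CPM (log2 fold change -0.55, adjusted p = 1.04e-09). Ddit3, the stress-induced C/EBP relative CHOP, fell from 14.3 ± 0.405 to 10.3 ± 0.903 CPM, and Cebpg, a dimer partner, and Atf4 fell by 0.22 and 0.21 on the log2 scale.

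Of 17 tested forkhead genes outside the FOXA family, 9 rose, 2 fell and 6 did not pass, with a median of 0.15. Foxf2 and Foxj1, counted among the 9, passed the count filter only through the LRG1 libraries. The filter thus favoured a rise in both. Foxq1 rose from 11.97 ± 1.07 to 28.7 ± 0.779 CPM and Foxp1 from 44.3 ± 0.410 to 62.2 ± 2.78 CPM. Foxj1, the factor of motile cilia, went from 0.527 ± 0.147 to 5.57 ± 0.322 CPM. No PBS library held a Foxf2 count, and the LRG1 libraries had 1.79, 1.08 and 1.06 CPM. Cux1, a CUT relative of the ONECUT genes, rose with a log2 fold change of 0.20, while Prox2, the relative of Prox1, had -0.063 and did not pass (adjusted p = 0.817).

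Among 9 other liver transcription factors, 3 rose and 2 fell, with a median of 0.080. Over all tested genes 25.5% rose and 25.8% fell. Creb3l3, a liver-specific membrane-bound factor, rose from 75.3 ± 2.47 to 105 ± 3.52 CPM, and Tbx3 was 1.45-fold higher. Zbtb20, a repressor of the fetal gene Afp, fell by 0.35 on the log2 scale. Afp fell as well, from 14.7 ± 1.68 to 8.63 ± 0.780 CPM (log2 fold change -0.77, adjusted p = 1.51e-06). Of the 9 factors, Gata4 was the other gene called lower (log2 fold change -0.20, adjusted p = 0.0388). Its call was lost in 7 of 15 other settings, among them leaving out PBS replicate 2 or 3 or LRG1 replicate 2 or 3. Receptors and signal proteins upstream of Cebpb and Cebpd were also mixed. Of 12, 5 rose and 3 fell, with a median of -0.012. Osmr and Il1rap, subunits of the oncostatin M and interleukin-1 receptors, were 1.48-fold and 1.67-fold higher, whereas the glucagon receptor gene Gcgr fell from 65.2 ± 2.41 to 21.0 ± 3.30 CPM. Once trends with GC content and length had been removed 3 of these 12 rose and 6 fell, and without LRG1 replicate 3 the number that rose was 3.

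Genes that textbooks give as liver targets of the factors were counted in 3 lists, to be read against the 25.8% of all tested genes that fell and the 25.5% that rose. The lists share genes, among them Tat and G6pc, and were written with earlier results of these data known. Of 17 C/EBP targets, 9 fell, 1 rose and 7 did not pass, with a median of -0.42. Crp, an acute phase protein, fell from 79.4 ± 4.39 to 20.4 ± 1.88 CPM, and Cps1, Apcs and Hp fell by 2.11, 1.84 and 1.13 on the log2 scale. Other acute phase genes of the list, Saa1, Saa2, Saa3, Orm1 and Orm2, did not pass, and neither did Lcn2. Their log2 fold changes lay between -0.056 (Orm1) and 0.21 (Saa3). Gys2, the liver glycogen synthase, had the lowest log2 fold change of the list, -3.08. Gys2 and Pck1 passed the count filter only through the PBS libraries, so the filter favoured a fall in both, and Pck1 also stands in the FOXA list. Albumin, Alb, had -0.052 and did not pass (adjusted p = 0.292), with a sign that turned once trends with GC content and length had been removed (0.0073). Arg1 was the gene that rose (log2 fold change 0.76). Without LRG1 replicate 2, and likewise with these trends removed, 3 genes of the list rose.

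Of 14 FOXA targets, 10 fell, 1 rose and 3 did not pass, with a median of -0.91. Tat, tyrosine aminotransferase, fell from 9.20 ± 1.33 to 1.19 ± 0.194 CPM, and Slc2a2, the GLUT2 glucose transporter, from 18.9 ± 1.75 to 3.64 ± 0.884 CPM. Igfbp1 and Mttp fell by 1.04 and 0.66 on the log2 scale. The number that rose was 2 under 5 of 15 other settings. These were total counts, no filter on low counts, limma-voom, and leaving out PBS replicate 1 or LRG1 replicate 3. Of 5 tested ONECUT1 targets, 3 fell and none rose, with a median of -0.29. Pfkfb1, the gene in which ONECUT1 was first described, fell only slightly (log2 fold change -0.29, adjusted p = 0.0353), and its call was lost under 7 of 15 other settings (adjusted p up to 0.126), among them leaving out PBS replicate 1 or 3 or LRG1 replicate 1 or 3. It overlaps Apex2 on the opposite strand. No test tied any of these genes to the level of a factor.

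**Figure D4:**
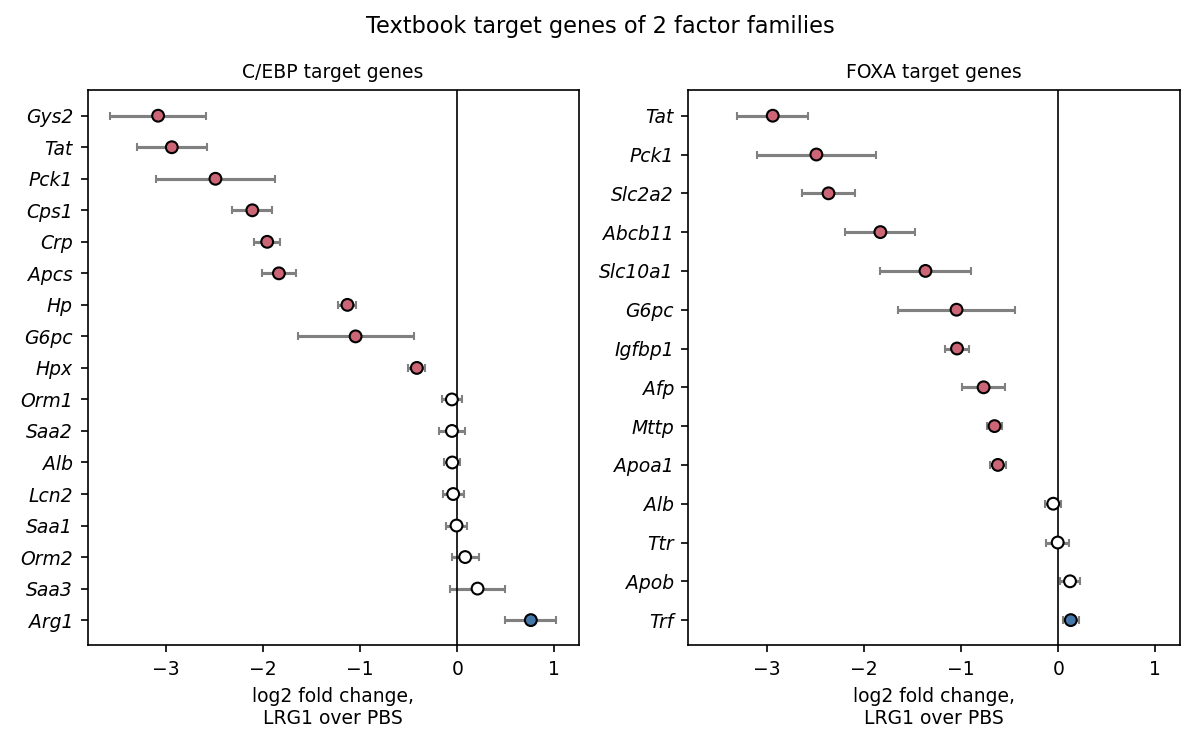
Log2 fold change, LRG1 over PBS (horizontal axis), with 95% intervals for the tested genes of the C/EBP and FOXA target lists; red points fell, blue points rose and open points did not pass the test. The values run from -3.08 for Gys2 to 0.76 for Arg1, and Alb lies near 0 in both lists.

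Markers of other cell types that hold these factors were measured beside them. Fewer cells of a type and less RNA per cell cannot be told apart in such bulk libraries. Of 8 biliary markers, 4 were tested, with a summed level of 5064 to 5375 CPM with PBS and 6153 to 6419 CPM with LRG1. Spp1, at 4437 ± 103 and 4442 ± 176 CPM, made up most of it without passing, Cldn4 (690 ± 65.4 to 1794 ± 35.0 CPM) and Sox9 rose, and Krt19 fell from 18.4 ± 3.07 to 3.24 ± 0.248 CPM. Macrophage and leukocyte markers summed to 224 to 270 CPM with PBS and 184 to 210 CPM with LRG1, mostly from Cd68, which fell. Of the 8 tested, Cd5l also fell, Marco rose and 5 did not pass, with a median log2 fold change of 0.25. The call of Marco was lost under 4 of 15 other settings. Clec4f (0.31) and Ptprc (0.65), among the 5, passed the count filter only through the LRG1 libraries. The filter thus favoured their positive values and with them a higher median. Of the 3 neutrophil markers, 2 had no count in any library. Stellate and fibroblast markers summed to 52.0 to 58.3 CPM with PBS and 149.9 to 161 CPM with LRG1, of which Col1a1 was 11.2 ± 2.30 CPM with PBS and 110.2 ± 4.96 CPM with LRG1. Of the 7 tested, Acta2 also rose, Reln fell and 4 did not pass, with a median of -0.029, so the higher sum was nearly all Col1a1. The part of these cells in the values of the factor genes was not tested.

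The genes with profiles most like those of Onecut1 and Cebpb, the called members with the lowest and the highest log2 fold change, were sought among 11010 genes by the root mean square difference of centred log2 CPM over the 6 libraries. For Onecut1 they were Acot2 (0.057), Abcc12 (0.082) and Gsta1 (0.089), which were 4.99-fold, 4.47-fold and 4.47-fold lower. Acot2 and Gsta1 have close paralogs, so their counts are uncertain. For Cebpb they were Lrba (0.022), Yipf2 (0.025) and Trappc6a (0.028). Since the treatment dominates a profile over 6 libraries, the measure mainly finds genes of the same fold change.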

How the data were processed

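The authors deposited raw counts of reads for each gene symbol, with a file for every library. Per the submitters' processing notes these came from bcl2fastq, TopHat2 and HTSeq on mm9. Which versions, annotation and strand setting were used is not given in the sources used here. Each file ends in 5 summary rows, which were left out. Reads in no gene were 8.96 to 10.3% of uniquely aligned reads, and non-unique alignments 58.2 to 59.3% of row totals, so genes with close copies may have lost counts.

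Counts were filtered with edgeR's filterByExpr (minimum count 10), scaled by TMM and tested with edgeR 4.0.16 (R 4.3.3) by the quasi-likelihood F test on treatment alone. P-values were adjusted by Benjamini-Hochberg over 12301 genes at a threshold of 0.05. SEs come from the F statistic. Alternatives were other scalings and filters, DESeq2 1.42.0, limma-voom 3.58.1, a replicate block, leaving out each library and, added after seeing the data, GC and length trends removed per library. The scripts were tested on simulated counts. Levels per kilobase used GENCODE M21 exon lengths.

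The members and gene lists were chosen with earlier results of these data known. Named genes are all members, Lrg1, up to 4 genes per list with the smallest p and the most similar profiles. Gata4, Alb, Arg1, Gys2, Tmem189, Afp, Clec4f and Ptprc were named after their values were seen, as were Saa1, Saa2, Saa3, Orm1, Orm2 and Lcn2. A few genes that the rule selects are left out of the text.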

Additional observations from a re-analysis of the deposited data

How the results depend on the processing

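Of the 9 factor genes, Foxa1, Foxa2, Foxa3, Cebpa, Onecut1 and Prox1 kept their direction and call under all 15 alternatives, and Cebpd and Onecut2 passed under none. The call of Cebpb was lost with GC and length trends removed. The sign of Cebpd turned without PBS replicate 3 and without LRG1 replicate 1, and over the libraries left out its log2 fold change ran from -0.051 to 0.12. The genes called over the whole table numbered 2718 to 3391 higher and 2864 to 3278 lower over the alternatives. With the replicate number as a block, 2906 genes were higher, 2984 were lower and 7 members were lower. Deviations of libraries with the same number correlated at -0.12, -0.014 and -0.12, and 0 of 6 libraries correlated best with their own number, so the number was not taken as a pairing. Spp1, near 0, was -0.0020 with DESeq2 size factors, -0.0014 with upper quartiles and -0.0020 with DESeq2, and -0.018 to 0.035 with libraries left out. Prox2 ran from -0.21 to 0.058 over the libraries left out. Alb was 0.0073 with GC and length trends removed. Differences in log2 ratio kept their sign with 0.5 counts added, with the replicate block, without each library and with GC and length trends removed, the settings run for them. Among the 9 factor genes, Onecut1 and Cebpd had the fewest counts and the widest intervals.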
